A study of Mus musculus with 4 samples.

Results

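The levels of 10 immediate early genes were followed in mouse fibroblasts exposed to activators of chaperone-mediated autophagy (CMA), the route by which single cytosolic proteins are carried into lysosomes. AR7 is the earlier compound, from which CA39 and CA77 were designed. They were the AP-1 genes Fos, Fosb, Fosl1, Jun and Junb, the EGR genes Egr1, Egr2 and Egr3, and the IER genes Ier2 and Ier3. A gene was included when the accession of a gene probe on the array mapped to its mouse symbol. This gave 10 genes and 10 probes out of 36838 gene names and 55378 probes with a value on all 4 arrays. Fos was printed in 10 spots on each array and every other gene in 1, so that 19 spots per array were read.

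NIH-3T3 cells, an established line of mouse embryo fibroblasts labelled as wild type, were grown to confluency in serum-containing medium. One culture received no treatment, and the others received AR7, CA39 or CA77 at 20 µM and were collected after 24 h. Total RNA of each culture was labelled with Cy3 and hybridised to 1 one-colour Agilent array, so each group is 1 array. The compounds were dissolved in DMSO and the control carries no such label, so vehicle and compound cannot be told apart in changes that all treated cultures share. No test was possible and no p-value is given. A signal from a whole culture also cannot separate fewer cells that carry a transcript from less transcript per cell.

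Immediate early genes are switched on within minutes of a stimulus such as serum, a growth factor or stress, with no need for new protein, and their transcripts are short-lived. MAP kinases act on SRF with its ternary complex partners and on CREB at the promoters of these genes. FOS and JUN proteins pair through leucine zippers to form AP-1, EGR proteins bind GC-rich DNA through zinc fingers, and fibroblasts that leave quiescence are the classical setting in which both families were described. The arrays here were taken a day after treatment and so measure a standing level, not the first burst of induction.

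The promoter windows of 4 members, 1 from each of the FOS, JUN, EGR and IER groups, are shown first, since SRF, CREB, AP-1 and EGR proteins act on this class of genes through sites in DNA. RefSeq windows on GRCm38.p6, from 250 bases before to 50 bases after the annotated start, were given for 6 of the 10 genes (Fos, Fosb, Jun, Junb, Egr2 and Ier3). Each line below is 1 window, written 5′ to 3′ on the strand of the gene, with motif matches in capitals. The window of Fos is chr12:85473640-85473939 (+), that of Jun chr4:95052173-95052472 (-), that of Egr2 chr10:67537619-67537918 (+) and that of Ier3 chr17:35821463-35821762 (+).
Fos: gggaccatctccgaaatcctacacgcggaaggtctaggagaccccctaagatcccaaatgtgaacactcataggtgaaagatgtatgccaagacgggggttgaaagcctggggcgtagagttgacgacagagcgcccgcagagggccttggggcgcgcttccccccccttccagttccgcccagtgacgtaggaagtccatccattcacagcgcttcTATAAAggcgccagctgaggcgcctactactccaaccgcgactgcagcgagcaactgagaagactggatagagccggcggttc
Jun: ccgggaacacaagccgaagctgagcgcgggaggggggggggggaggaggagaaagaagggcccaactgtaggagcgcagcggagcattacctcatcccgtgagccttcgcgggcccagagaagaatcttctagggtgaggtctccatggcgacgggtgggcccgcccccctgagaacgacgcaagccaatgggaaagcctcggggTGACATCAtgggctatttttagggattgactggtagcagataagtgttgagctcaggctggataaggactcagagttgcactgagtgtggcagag
Egr2: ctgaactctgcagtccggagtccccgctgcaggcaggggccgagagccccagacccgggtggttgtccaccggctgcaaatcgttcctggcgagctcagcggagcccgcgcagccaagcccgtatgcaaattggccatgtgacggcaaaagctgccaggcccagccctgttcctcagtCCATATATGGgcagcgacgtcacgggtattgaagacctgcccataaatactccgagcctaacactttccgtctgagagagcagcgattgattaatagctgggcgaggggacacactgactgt
Ier3: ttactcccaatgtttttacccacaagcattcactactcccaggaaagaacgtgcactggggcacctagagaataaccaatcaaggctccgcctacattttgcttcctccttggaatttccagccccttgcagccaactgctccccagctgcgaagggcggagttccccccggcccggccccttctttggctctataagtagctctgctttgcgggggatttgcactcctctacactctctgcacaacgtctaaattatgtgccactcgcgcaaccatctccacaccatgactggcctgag

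The search covered 7 motifs on both strands, which were the CArG box bound by SRF, TGACGTCA, TGAGTCA, TGACATCA, GCGTGGGCG, GCGGGGGCG and TATAAA. In the Jun window TGACATCA, an AP-1 and ATF type site, began 45 bases before the start, and 3.62% of 32851 windows of all genes held it. Egr2 had 5 windows for different annotated starts, of which 4 held a CArG box, and that of the window shown began 72 bases before the start. The same box lay in 3 overlapping windows, and 1.63% of all windows held a CArG box. The Fos window had a match to TATAAA alone, 33 bases before the start (13.6% of all windows), and the Ier3 window had no match. Of the windows not shown, Fosb held GCGGGGGCG 50 bases before the start (2.91% of all windows) and Junb held TATAAA at its annotated start. A match is a run of letters and was not shown to be bound in these cells.

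The levels below are log2 normalized intensities, and levels of different probes are not compared with each other. Error within an array was taken from 399 probes printed 10 times. Their spots had a median SD between 0.09 (the CA39 array) and 0.12 (the untreated and AR7 arrays). The tolerance of 0.16 (log2) used below is the SD that this gives for a difference of 2 single spots. It is a yardstick and not an error limit, since spot noise alone can take unchanged genes past it. The 95th percentile of the spot SD was 0.16 on CA39 and 0.22 on untreated. For Fos, a mean over repeated spots, the tolerance is wider than the error over spots. The tolerance does not include the difference between cultures, which was not measured.

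Among FOS family genes, Fosl1, which encodes the FOS-related protein FRA-1, had the widest range. Its level was 12.97 on the untreated array, 13.51 with AR7, 11.94 with CA39 and 13.12 with CA77. Fosl1 was thus lowest with CA39, by 1.04 (log2) or 2.05-fold against untreated, and highest with AR7, by 0.54. CA77 lay within the tolerance of the untreated level.

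Fos, the cellular counterpart of a viral oncogene, was at 8.30 on untreated, 7.90 with AR7, 8.13 with CA39 and 8.32 with CA77. It is the one member whose spots give an error of their own. Over 10 spots the SD was 0.12 for the untreated culture, 0.12 for AR7 and 0.09 for CA77, and over the 8 spots of CA39 that were not marked as outliers it was 0.05 (2 were marked). With AR7 the mean was lower by 0.40 with a standard error over spots of 0.053, and 9 of 10 spots lay below the lowest untreated spot (8.11). With CA39 the mean was lower by 0.17 with a standard error of 0.042, close to the tolerance, and the difference became 0.03 when the outlier spots were kept. The difference with CA77 was 0.02. Fosb was at 7.63, 7.59, 7.73 and 7.81 on untreated, AR7, CA39 and CA77, and each step between neighbours in this order of levels was within the tolerance. The distance from its lowest level to its highest was 0.22.

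Jun, which encodes the main partner of FOS proteins, was bright on every array. Its level was 14.31 on untreated, 14.38 with AR7, 13.19 with CA39 and 14.31 with CA77. Of these, the first, second and last lay within the tolerance of each other, and CA39 stood apart, lower than untreated by 1.12 or 2.17-fold. Junb, whose product often opposes JUN at shared sites, was at 10.17, 9.97, 9.68 and 10.24 in the same order. Junb was also lowest with CA39, by 0.50 or 1.41-fold, short of 2-fold.

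**Figure D1:**
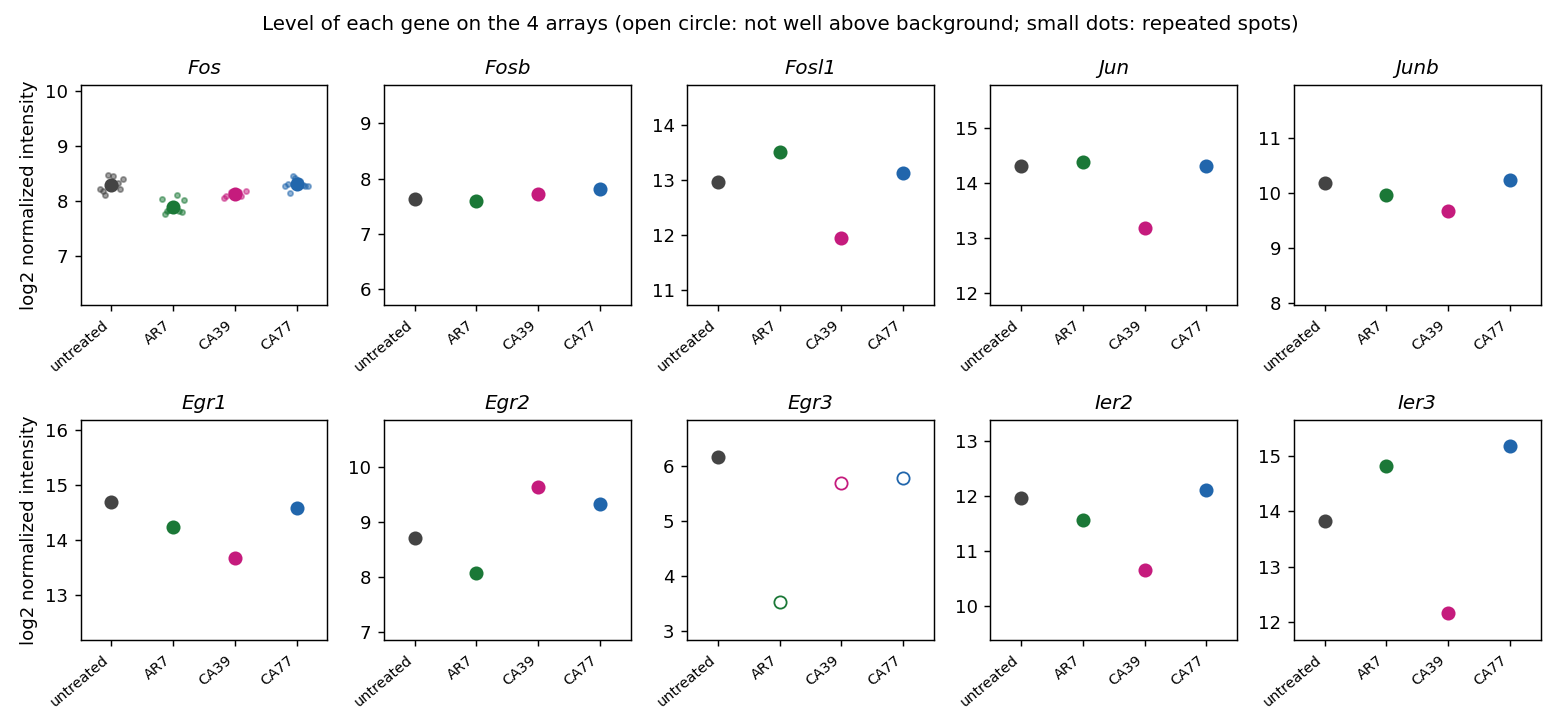
Log2 normalized intensity (vertical axis, a span of 4 log2 units in every panel) of the 10 genes on the untreated, AR7, CA39 and CA77 arrays (horizontal axis). Each large point is 1 array, small dots in the Fos panel are its repeated spots, and open circles are values not well above background; the CA39 point is the lowest in the panels of Fosl1, Jun, Junb, Egr1, Ier2 and Ier3.

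The EGR genes did not move as a family. Egr1, the best known serum-inducible zinc finger gene, was at 14.69 on untreated, 14.24 with AR7, 13.68 with CA39 and 14.58 with CA77. It was highest in the untreated culture, with CA77 within the tolerance of it, and lower by 0.46 with AR7 and by 1.01 or 2.01-fold with CA39. Egr2, known for its part in myelin formation and hindbrain patterning, was at 8.72, 8.08, 9.64 and 9.33 in the same order. Egr2 therefore ran the other way with CA39, higher than untreated by 0.92 or 1.90-fold, and it was also higher with CA77, by 0.61, and lower with AR7, by 0.64. None of the steps between its 4 levels was within the tolerance. Under scalings that start from the background-subtracted signal the CA77 difference of Egr2 was larger, between 0.78 and 0.84.

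Egr3 was well above background on the untreated array alone, at 6.16. That array also detected the most probes, 69.7% against 52.9% on AR7, 52.2% on CA39 and 61.6% on CA77. It read 3.53 (AR7), 5.69 (CA39) and 5.78 (CA77) after treatment, all not well above background. The untreated level lay under the dimmest 1% of detected signal on each treated array (log2 6.82 on AR7, 6.87 on CA39 and 6.26 on CA77), so no fold is given. Against the lowest detected signal of the AR7 array in place of that floor, the bound for Egr3 with AR7 was a difference of -2.36 (log2) or beyond, but that floor of 3.81 was set by 1 outlying probe.

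Of the 9 genes measured on all arrays, Ier3 had the widest range, at 3.03 from its lowest to its highest level. Ier3, which encodes a short-lived membrane-associated protein known to act on cell survival and ERK signalling, was at 13.82 on untreated, 14.83 with AR7, 12.15 with CA39 and 15.18 with CA77. Its levels with AR7 and CA77 lay above untreated by 1.01 (2.01-fold) and 1.36 (2.56-fold), and the level with CA39 lay below it by 1.67 (3.19-fold). Ier3 was the one member of the 9 measured on all arrays that passed 2-fold with every compound, and it did so in both directions. The call with AR7 was lost under the 75th percentile scaling, where the difference was 0.998.

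Ier2, which encodes a nuclear protein induced with the EGR genes, was at 11.96 on untreated, 11.57 with AR7, 10.66 with CA39 and 12.12 with CA77. Its lowest level was again that with CA39, by 1.30 or 2.47-fold, followed by AR7, lower by 0.39. The difference with CA77 was 0.16 and just past the tolerance.

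With CA39, 5 of the 9 members measured on both arrays were past 2-fold lower than untreated (Fosl1, Jun, Egr1, Ier2 and Ier3) and 0 were past 2-fold higher. The count was 3 (Jun, Ier2 and Ier3) when the median difference of neighbouring spots was taken off. Among all 27894 genes compared, 1.16% were past 2-fold lower and 3.69% past 2-fold higher with CA39. Among the 20594 genes that, like these 9, were detected on all 4 arrays the shares were 1.16% and 2.21%. Egr1 at -1.01, Fosl1 at -1.04 and Jun at -1.12 passed the threshold by less than the tolerance, and Ier2 and Ier3 by more than it. Beyond the tolerance, 7 of the 9 were lower, 1 higher (Egr2) and 1 within it (Fosb). Of the 20594 genes 33.5% were lower and 23.6% higher beyond the tolerance. The median of the 9 members was -1.01 and that of the 20594 genes was -0.04. With Egr3 entered at 0 the median of the 10 members was -0.75.

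With AR7, 1 of the 9 was past 2-fold higher (Ier3, by less than the tolerance beyond the threshold) and 0 were past 2-fold lower, where 1.8% of all 27855 genes compared were higher and 0.388% lower (0.583% and 0.228% of the 20594 genes). Smaller differences with AR7 leaned downward, with 5 members lower beyond the tolerance (Fos, Junb, Egr1, Egr2 and Ier2), 2 higher (Fosl1 and Ier3) and 2 within it (Fosb and Jun). Of the 20594 genes 20.8% were lower and 16.2% higher beyond the tolerance. The median of the members was -0.21, against -0.01 for the 20594 genes, and was -0.12 with Egr3 entered at 0.

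With CA77, Ier3 was likewise the 1 member past 2-fold higher and 0 were past 2-fold lower, beside 1.93% and 0.548% of all 28126 genes compared (0.49% and 0.354% of the 20594). None of the 9 was lower beyond the tolerance (0 members), 4 were higher (Fosb, Egr2, Ier2 and Ier3) and 5 lay within it. Under some processing alternatives Fosb and Ier2 fell within the tolerance, down to 0.06 and 0.02, and Fosl1 rose past it, up to 0.19. Of the 20594 genes 26% were lower and 18% higher beyond the tolerance. The median of the members was 0.15, against -0.02 for the 20594 genes, and was 0.11 with Egr3 entered at 0. All these comparisons share the untreated array, so an unusual level on that array enters each of them.

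**Figure D2:**
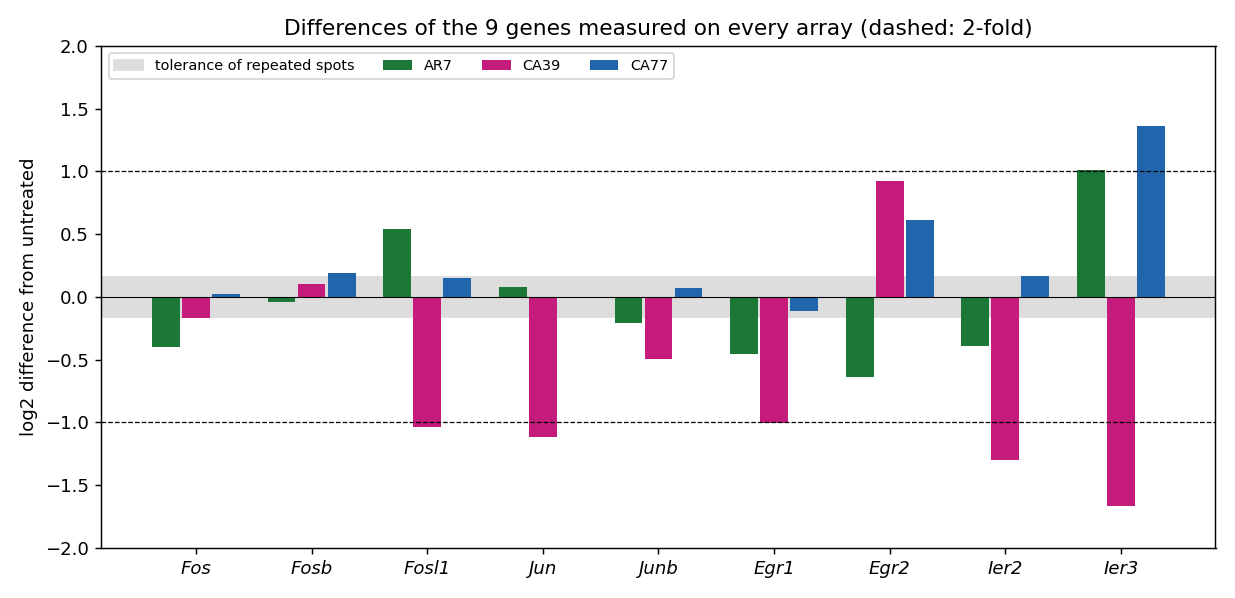
Log2 difference from untreated (vertical axis) of the 9 genes measured on all arrays (horizontal axis), with bars for AR7, CA39 and CA77; each bar is the difference of 2 arrays, the grey band is the tolerance of 0.16 and dashed lines mark 2-fold. The CA39 bars of Fosl1, Jun, Egr1, Ier2 and Ier3 reach below the lower line, and the Ier3 bars of AR7 and CA77 reach above the upper one.

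The compounds were then set directly against each other at the matched dose of 20 µM and time of 24 h, in 3 pairs, which leaves the untreated array out. CA39 stood below AR7 past 2-fold for 3 of the 9 members, Fosl1 (-1.57, 2.97-fold), Jun (-1.2, 2.29-fold) and Ier3 (-2.68, 6.41-fold), and above it for 1, Egr2 (1.56, 2.95-fold). Of 23075 genes compared, 2.43% were lower and 3.72% higher past 2-fold with CA39 than with AR7 (1.59% and 2.66% of the 20594). Beyond the tolerance 6 members were lower and 2 higher, beside 32.2% and 25.4% of the 20594 genes. Egr1 (-0.55) and Ier2 (-0.91) were also lower with CA39 than with AR7, short of 2-fold.

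Against CA77, CA39 was past 2-fold lower for 4 members, Fosl1 (-1.19), Jun (-1.12), Ier2 (-1.46) and Ier3 (-3.03, 8.17-fold), and past 2-fold higher for 0. The shares over 25457 genes were 2.24% lower and 3.98% higher (1.56% and 2.75% of the 20594). Beyond the tolerance 7 members were lower and 1 higher (Egr2), beside 28.6% and 26.6%. Egr1 was lower by 0.90 in that pair. The Ier3 difference between CA39 and CA77 was the largest of any member in any pair.

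CA77 and AR7 were closer for most members. Past 2-fold, 1 member was higher with CA77 than with AR7, Egr2 (1.25, 2.37-fold), and 0 were lower, where 1.16% of 25344 genes were higher and 1.4% lower (0.35% and 0.364% of the 20594). Beyond the tolerance 7 of the 9 were higher with CA77, 1 was lower (Fosl1, by 0.38) and 1 lay within it (Jun, -0.08), beside 15.4% higher and 20.1% lower among the 20594 genes. The differences of Ier2 (0.55), Fos (0.42), Ier3 (0.35) and Egr1 (0.34) were of a similar size, so that on these arrays the members stood mostly higher with CA77 than with AR7, by under 1.5-fold for each of them but Egr2. With 1 culture per compound the interval of such a difference is unknown.

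The place of a probe on the array was examined because, among genes read by 1 spot and detected on all arrays, those in grid rows 1 to 160 of 384 passed 2-fold more often (1.16% against 0.577% with AR7, 3.59% against 3.14% with CA39 and 1.13% against 0.635% with CA77). Fosl1, Jun, Egr1, Egr3 and Ier3 lie in rows over 160, while Fosb, Junb, Egr2 and Ier2 lie in rows up to 160. For each gene with 1 spot the neighbouring spots within 3 rows and columns were read. With CA39 the median difference of the neighbours was -0.06 at Fosl1, 0.09 at Jun, -0.10 at Egr1, 0.05 at Ier2 and -0.15 at Ier3. The differences with the neighbours' median taken off were -0.97 for Fosl1, -1.22 for Jun, -0.91 for Egr1, -1.35 for Ier2 and -1.52 for Ier3. Fosl1 and Egr1 then lay short of 2-fold. For Ier3 the corrected values were 1.03 with AR7 and 1.39 with CA77, and for Egr2 -0.64 (AR7), 0.94 (CA39) and 0.50 (CA77). At Ier2 the neighbours' median with CA77 was 0.14, and the difference of 0.16 became 0.02, within the tolerance.

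On the slide, the control occupied row 1 and the 3 compounds row 2. CA77 was read in scan 2 and the rest in scan 1. Slide row cannot be told apart from treatment, nor scan from CA77. The CA39 array shared its row with AR7 and CA77 and its scan with AR7. Each member other than Fos was read by 1 spot of 1 probe, so that no second probe bears on its value.

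Genes with the most similar pattern were sought for the 2 members of widest range among the 9 detected on all arrays, by the Euclidean distance of the 3 differences from untreated over 4 arrays and 20585 candidate genes. For Ier3 (1.01, -1.67 and 1.36 with AR7, CA39 and CA77) the nearest were Rab15, a RAB family GTPase (1.33, -1.89 and 1.00, distance 0.53), Mep1a, a metalloprotease subunit (1.04, -2.23 and 1.08, distance 0.62), and Serpinb9c, a serine protease inhibitor family member (1.5, -1.58 and 0.99, distance 0.63). For Fosl1 (0.54, -1.04 and 0.15) they were Gstt3, a theta-class glutathione transferase (distance 0.09), Stx11, a syntaxin (0.10), and Sema4a, a semaphorin (0.14). The nearest genes lay closer to Fosl1 than to Ier3. A member chosen for a wide range lies where there are fewer genes, so its larger distances do not show that its pattern is unusual. Other members were not among the candidates.

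Other genes of the pathway were read from 7 lists, which held 131 genes, 128 of them on the array. They cover further AP-1 partners, further immediate early genes, the SRF, TCF and CREB factors and the MAP kinases that act upstream, EGR corepressors and targets, AP-1 targets and heat shock genes. With CA39, 6 of the 116 genes compared were past 2-fold higher and 4 lower (5.17% and 3.45%, beside 3.69% and 1.16% of all genes), with AR7 2 of 116 were higher (1.72%, beside 1.8%) and 0 lower (beside 0.388%), and with CA77 0 of 117 passed in either direction (beside 1.93% and 0.548%). Their medians were 0.01 (AR7), -0.01 (CA39) and 0.00 (CA77).

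Past 2-fold against untreated, the share of all genes was at most 3.69% in either direction with any compound. None of the 10 other AP-1 partners compared passed 2-fold against untreated with any compound (0 higher and 0 lower). With CA39, 3 of them were lower and 5 higher beyond the tolerance, beside 33.5% and 23.6% of the 20594 genes. Jund, the JUN gene that is expressed in resting cells, was at -0.11 (AR7), 0.43 (CA39) and 0.09 (CA77) relative to untreated. Fosl2, which encodes FRA-2, differed by -0.21, 0.23 and 0.17, but a second, dimmer probe gave -0.23, -0.53 and -0.25, so its probes disagree in direction with CA39 and CA77. Atf3 did not stand well above background anywhere.

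Of 37 further immediate early genes, 34 were compared with AR7 and CA39 and 35 with CA77. With CA39, 1 of 34 was past 2-fold higher and 2 were lower, beside 3.69% and 1.16% of all genes. The gene higher was Klf2 (1.5), a Krüppel-like factor. The 2 lower were Sik1 (-1.58), a salt-inducible kinase that restrains CREB coactivators, and Ccn1 (-1.14), a secreted matricellular protein of serum-stimulated fibroblasts also called Cyr61. Klf2, Sik1 and Ccn1 were at -0.20, -0.12 and -0.28 in the AR7 culture, and at 0.16, -0.06 and 0.27 in the CA77 culture. Past the tolerance 15 of 34 were lower and 11 higher with CA39, beside 33.5% and 23.6% of the 20594 genes, and the list median was -0.08. Myc differed by 0.04, -0.36 and 0.10, Nr4a1 by -0.09, 0.22 and -0.13, and Egr4 stood well above background on none of the arrays.

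All 13 upstream SRF, TCF and CREB factors were detected on all arrays. None (0 of 13) passed 2-fold with any compound, beside at most 3.69% of all genes in either direction. Beyond the tolerance, 3 were higher and 1 lower with AR7, 3 higher and 3 lower with CA39, and 2 higher and 4 lower with CA77. The shares of the 20594 genes were 16.2% and 20.8%, 23.6% and 33.5%, and 18% and 26% in the same order. The farthest from untreated with CA39 was Crem, a CREB family gene named here after its values were seen, at 0.34 (AR7), 0.75 (CA39) and 0.40 (CA77), with a second detected probe at 0.45, 0.62 and 0.34. Srf was at -0.13 (AR7), -0.22 (CA39) and -0.21 (CA77), and Elk1 by 0.03, -0.06 and 0.02. A second Elk1 probe gave -0.16, 0.21 and 0.22, and a second Srf probe -0.19, -0.14 and -0.26. On the untreated array the first Elk1 probe was at 18.55 and the second at 7.80, and which of them reads Elk1 was not tested. Among 18 MAP kinase pathway genes 1 passed 2-fold, beside 3.69% of all genes past 2-fold higher with CA39. This was Mapk8, which encodes the JUN kinase JNK1, at 2.93 with CA39. Its other probes did not show this, with one at 0.34 and one not well above background on the CA39 array. The latter was at 1.87 with CA77, so the probes of Mapk8 disagree.

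EGR corepressors and targets held 1 gene past 2-fold with CA39, Nab2, higher by 1.28, with a second probe at 1.06. This is 1 of 12 compared, beside 3.69% of all genes. NAB2 binds EGR proteins and represses their activity, and Nab2 is itself known as an EGR target. With AR7 and CA77 Nab2 was lower by 0.28 and by 0.26. Nab1, its relative, differed by 0.02, 0.19 and 0.01. The medians of the 12 genes compared were 0.01, 0.08 and -0.06.

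Of 21 AP-1 targets compared with CA39, 3 were past 2-fold higher, among them the cytokine Il6 (2.22) and the secreted phosphoprotein Spp1 (1.35), and 2 were lower, the cytokine Lif (-1.24) and the gelatinase Mmp9, beside 3.69% and 1.16% of all genes. Mmp9 was not well above background with CA39 and was at least 1.28 (log2) lower than untreated. With AR7 Mmp9 (1.35) and the stromelysin Mmp10 (1.21) were past 2-fold higher, beside 1.8% of all genes, and with CA77 they differed by 0.85 and 0.05. Of 8 heat shock genes compared, 0 passed 2-fold with any compound, beside at most 3.69% of all genes in either direction. The medians of the 8 were 0.04, -0.07 and 0.15.

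**Figure D3:**
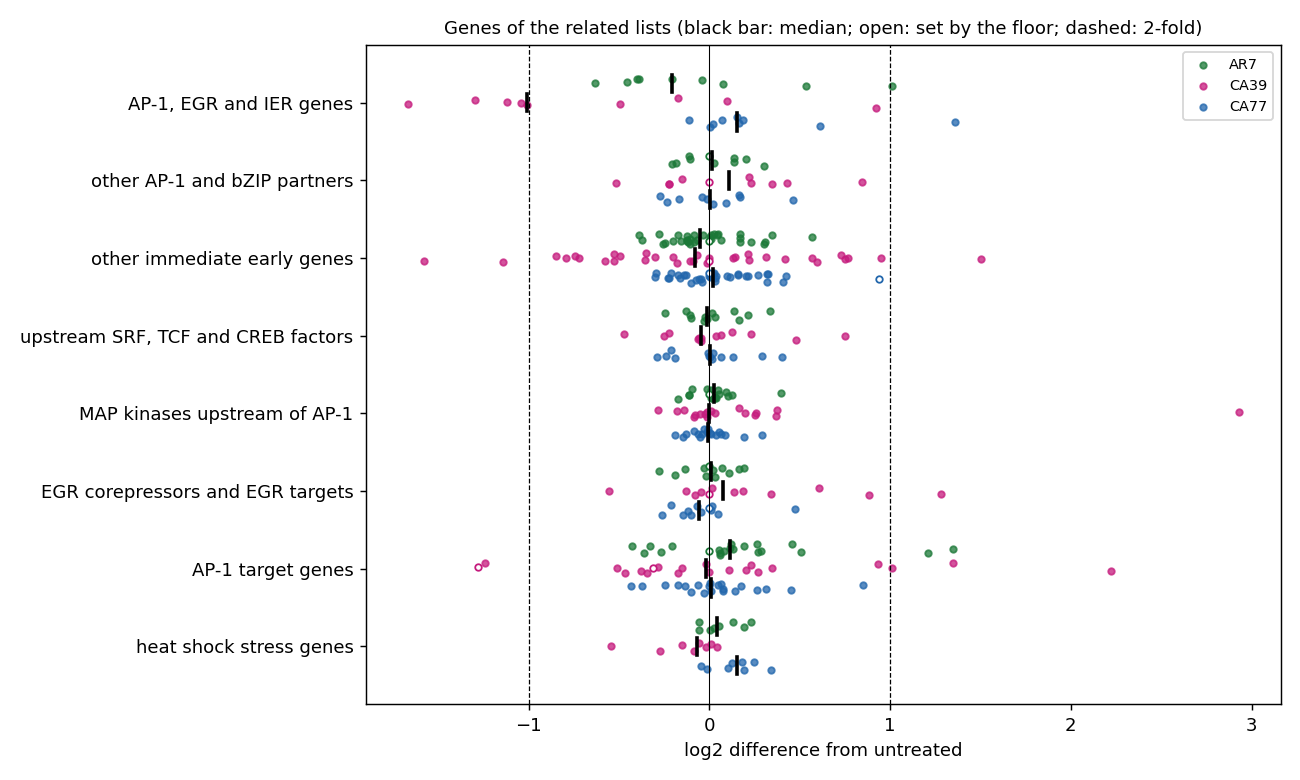
Log2 difference from untreated (horizontal axis) of single genes in the 9 measured AP-1, EGR and IER genes and in 7 related lists (vertical axis), for AR7, CA39 and CA77; each point is 1 gene, open points are set by the floor, black bars are medians and dashed lines mark 2-fold. The median of the top group with CA39 lies at -1.01, while those of the related lists lie within 0.16 of 0 with every compound.

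The label of the cells was checked against markers. Of 12 fibroblast markers, 11 were detected on all 4 arrays, with Pdgfrb well above background on CA39 alone. Several fibroblast markers were higher with CA39, with 5 past 2-fold (Col1a1, Fn1, Pdgfra, Pdgfrb and Fbn1) and a list median of 0.67, beside 3.69% of all genes past 2-fold higher. With AR7, 1 was past 2-fold lower (Col1a1, -1.04, beside 0.388% of all genes) and the median was -0.22, and with CA77 0 passed (beside 1.93% higher and 0.548% lower) and the median was -0.28. Their summed level (log2) was 19.91 for the untreated array, 19.67 for AR7, 20.29 for CA39 and 19.73 for CA77, and their part in the differences of the immediate early genes was not tested. Of 9 epithelial markers, 4 were detected on all arrays, and Epcam was well above background on CA39 alone and Cdh1 on none. The 4 epithelial markers were Krt5, Krt14, Cldn7 and Esrp1. The summed level of that list ranged from 10.39 to 10.71 over the arrays. That of 7 immune markers ranged from 13.03 to 13.57 and that of 6 endothelial markers from 12.03 to 12.23. Detected on all arrays were 4 of the 7 immune markers (Cd3e, Itgam, Lyz2 and Csf1r) and 4 of the 6 endothelial ones (Pecam1, Cdh5, Kdr and Vwf). Ptprc was detected on 2 arrays and Tie1 on none. On the untreated array Itgam was at 12.37 and Kdr at 11.91. Markers of other cell types were thus in part well above background. Their part was likewise not tested.

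**Figure D4:**
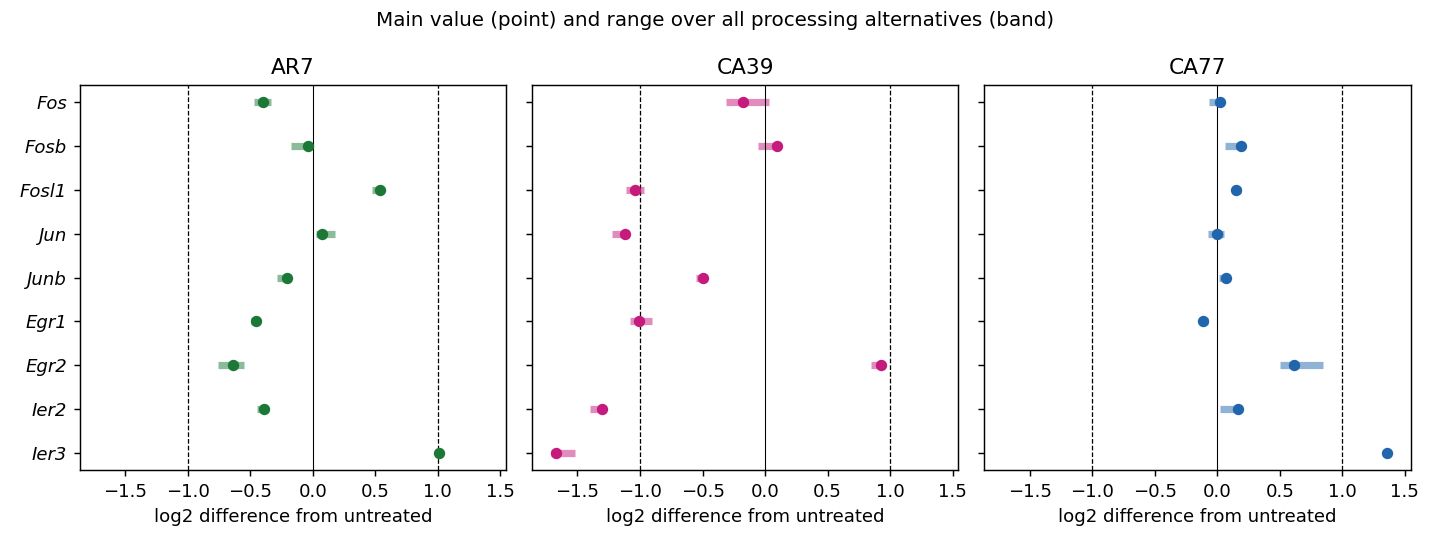
Log2 difference from untreated (horizontal axis) of the 9 genes (vertical axis) in panels for AR7, CA39 and CA77; points are the main values, bands span the lowest to the highest value over all processing alternatives and dashed lines mark 2-fold. With CA39 the bands of Jun, Ier2 and Ier3 stay beyond 2-fold lower, those of Fosl1 and Egr1 cross the line, and the Fos band reaches from -0.32 to 0.03.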

How the data were processed

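The authors hybridised Cy3-labelled total RNA of 4 cultures to Agilent mouse 8x60K arrays and read them with Feature Extraction 10.7.3.1. Each deposited scanner value is an intensity on a linear scale, and the deposited series table held the same background-subtracted intensity at all 62976 spots of each array (relative tolerance 1e-06). RMA (robust multiarray average), named in the methods, was followed as far as spot values allow. Spot and background medians were corrected with normexp in limma 3.58.1 (R 4.3.3) without offset, control spots were dropped, and quantile normalization across arrays was followed by log2. Spots with outlier flags (142 to 328 per array) were left out and spots of a probe averaged. Detection of a probe on an array required more than 50% of its spots to be well above background. An undetected value was raised to the 1st percentile of detected signal of its array unless higher, and differences against it are bounds. The lowest detected signal, the more usual floor, was an alternative because 1 outlying probe set it on AR7. Where the undetected side then exceeded the detected one, the difference was set to 0.

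Probe accessions, versions removed, were looked up among the RefSeq transcripts of GRCm38.p6, which named 27512 of 55378 probes. The array design cites an earlier build, so its coordinates are not given, and those of the promoter windows are on GRCm38.p6. A gene with several probes was represented by the brightest. A difference was past 2-fold at a log2 size of at least 1. The named genes were all 10 members, 10 fixed transcription factors and corepressors, every listed gene past 2-fold (except 1 that is not reported here), and the 3 nearest genes by pattern of the 2 members of widest range among those detected on all arrays. Crem and the epithelial, immune and endothelial markers other than Epcam fall outside this rule and were named after their values were seen. Members, lists, rules and floor were chosen with earlier results of these data known. Arrays had median net signals of 138 to 167.5 and 52.2% to 69.7% of probes detected. The number of arrays limits the precision, with no replicate culture. The steps were tested on simulated data.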

Additional observations from a re-analysis of the deposited data

How the results depend on the processing

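With 1 array per group no replicate could be left out. No paired analysis was possible because each group holds 1 sample. For the 9 members detected on all arrays, 146 of 282 recomputed differences could not differ from the main value, because each has 1 probe and none meets the floor or the filter. Of the 136 that could differ, 132 stayed within the tolerance of 0.16 and 4 moved, and 0 changed sign among those past 2-fold. The 4 are Fos with CA39 with outlier spots kept, and Egr2 with CA77 under 3 scalings of the background-subtracted signal. A further 5 values of Egr3, which rest on the floor, also moved. The alternative that takes off the median of neighbouring spots was chosen after seeing the data, and the others were planned.

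With CA39 the count of 5 members lower became 4 with the quantile-normalized processed signal, where Egr1 was at -0.998, 4 in grid rows over 160, where Ier2 has no probe, and 3 with the median of neighbouring spots taken off, where Fosl1 was at -0.97 and Egr1 at -0.91. With CA77, Fosb and Ier2, counted as higher beyond the tolerance, were within it with the 75th percentile scaling (0.06 and 0.11) and the quantile-normalized processed signal (0.14 and 0.11), and Fosl1 was then past it (0.18 and 0.19). Fosb was also within it with an offset of 50 (0.15) and the deposited series table (0.12). With the neighbours' median taken off Ier2 was within it (0.02) and Fosl1 past it (0.19). With AR7, Fosb was past it with the 75th percentile scaling and the quantile-normalized processed signal (-0.18 in each), and Jun with the neighbours' median taken off (0.17). Fos with CA39 was within it with an offset of 50 (-0.15). The medians over the related lists all stayed within the tolerance (30 of 30). The count of members higher with AR7 was 0 with the 75th percentile scaling, where Ier3 was at 0.998. The count of members lower with AR7 was 1 with the floor at the lowest detected signal and 1 with no floor and no filter, both times Egr3, and 1 at a 1.5-fold threshold. That threshold gave 1 member higher with CA39 and 2 with CA77. For the related lists, the count higher with AR7 (2) became 1 with an offset of 50 and 0 among genes detected on all 4 arrays. The count higher with CA39 (6) became 3 in grid rows over 160 and 16 at 1.5-fold, and the count lower (4) became 8 at 1.5-fold. The count higher with CA77 (0) became 1 with the 75th percentile scaling, 1 with the quantile-normalized processed signal, 1 with the deposited series table, 1 with the floor at the lowest detected signal, 1 with no floor and no filter, and 2 at 1.5-fold. The share of all genes past 1.5-fold was not taken, so the counts at that threshold have no background beside them. The 1.5-fold threshold admits smaller differences and the restricted sets hold fewer genes by construction. The other causes were not tested. Signal over background limits Egr3, and no alternative bears on the spread between cultures.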
